A study of Homo sapiens with 10 samples.

Results

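Wnt signalling is restrained by secreted inhibitors and by genes that the pathway itself switches on, and 10 such genes were followed here through neurospheres that differentiated in the presence of phthalate esters. The genes were chosen by symbol: DKK1, DKK3, SFRP1, SFRP2, FRZB and WIF1 encode secreted inhibitors or their relatives, LEF1 and TCF7L2 encode transcription factors of the pathway, and AXIN2 and NKD1 encode feedback inhibitors. All 10 were found among the 46427 genes of the count table, and 9 had enough counts for a test. The neurospheres came from ReNcell VM, a single immortalised line of human neural progenitors, and had 6 days in differentiation medium with each substance. The groups were DEP (diethyl phthalate), DProP, DPP and Mix, each labelled 100 µM, and a vehicle control with 0.1% DMSO. Each group had 2 libraries, and each library pooled the RNA of 6 neurospheres. DProP commonly stands for di-n-propyl phthalate, whose alkyl chains are longer than those of DEP, while the labels do not spell out DPP, a short form that several phthalates share. They also do not give the composition of Mix, and name DMSO for the vehicle libraries alone. Nothing in them tells whether replicate libraries stem from separate cultures, so the spread between 2 libraries, which may be technical, is all that the p-values measure.

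In the canonical pathway a Wnt ligand binds a Frizzled receptor together with the co-receptor LRP5 or LRP6, which stops a protein complex built on axin and APC from degrading beta-catenin. Beta-catenin then enters the nucleus and activates genes with the factors of the TCF/LEF family. In the developing nervous system the pathway is known for its part in regional patterning, progenitor growth and the formation of neurons.

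The start site of DKK1 is shown because this gene changed the most among the members and is known as a target of beta-catenin. LEF1 is shown beside it because both genes were highest with DPP. The windows run from 250 bases before to 50 bases after a start in RefSeq on GRCh38.p14. The first lies at chr10:52314031-52314330 on the plus strand and the second at chr4:108166252-108166551 on the minus strand. Both are written 5′ to 3′, and capitals mark CTTTGA, the core of the TCF/LEF motif, read on either strand.
DKK1: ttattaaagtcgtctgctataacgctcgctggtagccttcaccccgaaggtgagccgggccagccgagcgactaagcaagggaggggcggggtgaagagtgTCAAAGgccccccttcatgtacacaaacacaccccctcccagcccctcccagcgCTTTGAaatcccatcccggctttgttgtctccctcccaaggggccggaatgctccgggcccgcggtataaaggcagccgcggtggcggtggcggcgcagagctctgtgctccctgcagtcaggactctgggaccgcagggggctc
LEF1: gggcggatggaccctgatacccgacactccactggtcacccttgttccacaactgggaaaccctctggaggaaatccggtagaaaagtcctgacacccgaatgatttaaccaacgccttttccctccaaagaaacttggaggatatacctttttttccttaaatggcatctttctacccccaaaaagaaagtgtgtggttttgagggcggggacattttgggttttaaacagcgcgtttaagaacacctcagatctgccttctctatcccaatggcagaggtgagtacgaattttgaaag
DKK1 held 2 matches, which began at bases -149 and -95 from the start site, and the first was the reverse complement. At least 1 match was present in 12.9% of the 35116 promoter windows of the table, and 2 or more in 1.29%. The window of LEF1 held none, as did those of FRZB, SFRP2, TCF7L2 and WIF1. LEF1 spans chr4:108047548-108168932, so its window lies at a start inside the gene. The 5′ end of LEF1 had no window and was not searched. Of longer forms, CTTTGAA was found in DKK1 and in 4.43% of all windows, and CTTTGAT in none of these genes and in 2.62% of all windows. The table has no window for DKK3, SFRP1, AXIN2 or NKD1. A match describes letters and not a bound site.

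Libraries held between 57222381 and 72973100 counts. Levels are given in CPM, a gene's counts scaled to a common library total with TMM factors, which equalises the bulk of genes between libraries. A gene was called where edgeR's quasi-likelihood test gave a Benjamini-Hochberg adjusted p under 0.05 over the 19465 genes tested in a comparison. Every tested member had at least 27 counts in each library. The vehicle libraries stood apart from the treated ones, with 21500 and 21603 genes that had any count against 22905 to 23646 in treated libraries. Across the 16751 genes with a known GC content, treated-to-vehicle log2 fold changes were lower for genes of higher GC content (rho by Spearman from -0.322 to -0.262), whereas rho lay from -0.119 to 0.0498 between treatments. Fold changes between treatments set no level against vehicle, but the vehicle libraries entered the filter, the scaling and the shared estimate of spread. The labels name no batch, and one shared by both vehicle libraries cannot be told apart from treatment. Markers of progenitors, neurons and astrocytes were present in all libraries. Summed markers of the oligodendrocyte lineage ran from 643 to 1237 CPM. Those of smooth muscle, pericytes and fibroblasts ran from 87.9 to 190 CPM, and those of endothelium from 7.25 to 51.5 CPM. Of these, MAG, DCN and PECAM1 had no count. Of 7 markers of microglia and blood, PTPRC, AIF1, TYROBP and HBB had no count, and the sum of all 7 ran from 0 to 0.283 CPM. The summed level of 10 progenitor markers ran from 4502 to 4967 CPM in the treated libraries, against 7605 to 7666 CPM in vehicle. That of 10 neuron markers ran from 1085 to 1771 CPM in the treated libraries, against 2127 to 2191 CPM in vehicle. That of 10 astrocyte markers ran from 5284 to 5994 CPM in the treated libraries, against 9695 to 9890 CPM in vehicle. Not every marker moved with its sum. With Mix 7 progenitor, 4 neuron and 5 astrocyte markers were called lower, and 0, 1 and 1 higher. Over all genes 10.7% were lower with Mix and 9.71% higher. Each single phthalate had 10 progenitor, 6 to 8 neuron and 7 astrocyte markers called lower and none higher. Over all genes 13.5% to 19.5% were lower with these. In such bulk samples fewer cells of a type and less RNA per cell cannot be told apart, and the part of these shifts in the results on Wnt genes was not tested.

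**Figure D1:**
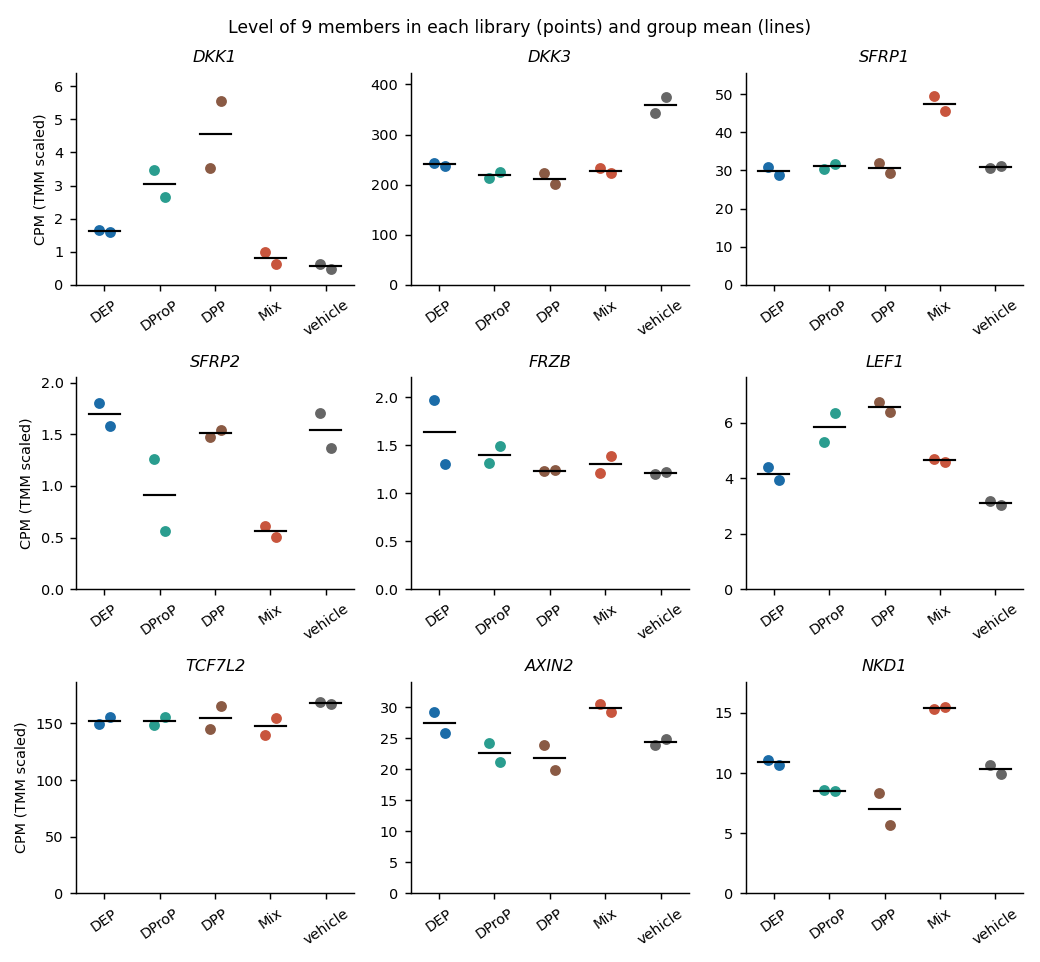
CPM of 9 members (vertical axes, from 0, each panel with its own scale) in the 2 libraries of each group (points), with the group mean as a line. DKK1 is highest with DPP (3.54 and 5.56 CPM), DKK3 is highest in vehicle, and SFRP1 and NKD1 are highest with Mix.

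DKK1, which blocks Wnt signalling by binding the LRP co-receptors, was raised by each single phthalate. It stood at 1.66 and 1.58 CPM in the DEP libraries, 3.46 and 2.65 CPM with DProP, 3.54 and 5.56 CPM with DPP, 0.996 and 0.637 CPM with Mix, against 0.642 and 0.486 CPM in vehicle. All 6 libraries of the single phthalates lay above both vehicle libraries, whereas the Mix and vehicle libraries overlapped. The log2 fold change against vehicle was 1.52 ± 0.30 (SE) for DEP, 2.42 ± 0.30 for DProP and 3.0 ± 0.30 for DPP, with adjusted p-values of 0.0044, 0.000147 and 2.24e-05. These 3 calls held in all 20 alternatives. With Mix the change was 0.53 ± 0.32 (adjusted p = 0.258), and its 95% interval ran from -0.16 to 1.23.

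DKK3, a secreted glycoprotein of the same family that is not a classical Wnt antagonist, fell in every treatment. Its levels were 244 and 237 CPM with DEP, 214 and 225 CPM with DProP, 223 and 201 CPM with DPP, 233 and 222 CPM with Mix, against 342 and 375 CPM in vehicle. No treated library reached either vehicle library. The log2 fold changes were -0.58 ± 0.07, -0.71 ± 0.07, -0.76 ± 0.07 and -0.66 ± 0.07 for DEP, DProP, DPP and Mix, with adjusted p-values from 1.18e-05 to 0.000191, and all 4 calls held in every alternative. Among the 4 treatments DKK3 did not pass the test of any difference (adjusted p = 0.268). DKK1 and DKK3 therefore differed in sign against vehicle under each single phthalate.

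SFRP1, a secreted Frizzled-related protein that binds Wnt ligands, was raised with Mix. It stood at 49.4 and 45.6 CPM in the Mix libraries, whereas the 6 libraries of DEP, DProP and DPP ran from 28.8 to 32.0 CPM and the vehicle libraries held 30.6 and 31.3 CPM. Both Mix libraries lay above all 8 others. The log2 fold change of Mix was 0.62 ± 0.08 against vehicle (adjusted p = 0.00028), and this call held in all 20 alternatives. Against vehicle the single phthalates gave -0.05, 0.01 and -0.01 for DEP, DProP and DPP, with 95% intervals from -0.22 to 0.12, from -0.16 to 0.18 and from -0.18 to 0.15.

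SFRP2, a close relative of SFRP1, stood low with Mix. Its levels were 0.614 and 0.510 CPM with Mix, against 1.71 and 1.37 CPM in vehicle, a log2 fold change of -1.45 ± 0.34 (adjusted p = 0.0113). This call ended without Mix 1 (adjusted p = 0.0601), Mix 2 (0.0689) or vehicle 1 (0.06). DEP had 1.80 and 1.58 CPM and DPP 1.48 and 1.54 CPM, both overlapping the vehicle libraries. The DProP libraries differed from each other, with 1.27 and 0.560 CPM, and the change against vehicle was -0.77 ± 0.32 (adjusted p = 0.09). Without DProP 1 it passed the test, with an adjusted p of 0.00809, as it did by limma-voom (0.0499). SFRP1 and SFRP2 thus moved apart in the same Mix libraries.

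FRZB, also called SFRP3, is another Wnt-binding relative. It ran from 1.21 to 1.97 CPM in the treated libraries, with the top value in DEP 1, and stood at 1.21 and 1.22 CPM in vehicle. No comparison called it, and the log2 fold changes against vehicle lay between 0.02 and 0.43. WIF1, a Wnt-binding inhibitor of separate structure, had no count in any library, which allows up to 0.0409 to 0.0540 CPM per library when a count of 0 is read as at most 3. This limit covers counting error only.

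LEF1, a TCF/LEF factor that is itself a Wnt target, was raised by DProP, DPP and Mix. It stood at 4.41 and 3.92 CPM with DEP, 5.32 and 6.37 CPM with DProP, 6.75 and 6.37 CPM with DPP, 4.71 and 4.59 CPM with Mix, against 3.16 and 3.03 CPM in vehicle. All 8 treated libraries lay above both vehicle libraries. The log2 fold changes were 0.92 ± 0.14 for DProP, 1.08 ± 0.14 for DPP and 0.59 ± 0.15 for Mix, with adjusted p-values of 0.00069, 0.000167 and 0.0149. The calls for DProP and DPP held in every alternative, whereas that for Mix ended without Mix 1 (adjusted p = 0.0847), vehicle 1 (0.0521) or vehicle 2 (0.0765). DEP gave 0.43 ± 0.15 and missed the threshold (adjusted p = 0.0512), which it passed in 6 of 20 alternatives. Counts could not be split by strand here, and the antisense gene LEF1-AS1 held 0.213% as many counts as LEF1.

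TCF7L2, the other TCF/LEF factor, varied little. It ran from 139.9 to 165 CPM over the treated libraries, all below the 168 and 167 CPM of vehicle. Its log2 fold changes lay between -0.19 and -0.12, and none was called against vehicle (adjusted p from 0.0898 to 0.234). The correction for GC content and length called the decrease with Mix (adjusted p = 0.0198).

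NKD1, which binds Dishevelled and dampens the signal, was raised with Mix and lowered with DPP. It stood at 11.1 and 10.6 CPM with DEP, 8.59 and 8.48 CPM with DProP, 8.33 and 5.69 CPM with DPP, 15.4 and 15.5 CPM with Mix, against 10.7 and 9.94 CPM in vehicle. Both Mix libraries lay above all 8 others, and both DPP libraries lay below all others. Against vehicle the log2 fold change was 0.58 ± 0.15 for Mix (adjusted p = 0.0158) and -0.55 ± 0.15 for DPP (adjusted p = 0.0123). The Mix call ended without any 1 of the Mix or vehicle libraries (adjusted p from 0.05 to 0.0923). The DPP call ended without DPP 2 (adjusted p = 0.101), without vehicle 1 (0.0664) and with library size alone (0.0504).

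AXIN2, a scaffold of the beta-catenin degradation complex and a standard readout of Wnt activity, was not called against vehicle in any treatment. Its levels were 29.2 and 25.9 CPM with DEP, 24.2 and 21.2 CPM with DProP, 23.88 and 19.9 CPM with DPP, 30.5 and 29.3 CPM with Mix, against 23.93 and 24.9 CPM in vehicle. The Mix libraries lay above vehicle and the DPP libraries below it. The log2 fold changes were 0.18, -0.10, -0.16 and 0.29 for DEP, DProP, DPP and Mix. That of Mix had an adjusted p of 0.0663 and passed the test in 7 of 20 alternatives, among them library size alone.

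In total 2 of the 9 tested members were called for DEP against vehicle, 3 for DProP, 4 for DPP and 5 for Mix. Over all tested genes 23.6% were called for DEP, 32.2% for DProP, 36.2% for DPP and 20.4% for Mix. The members' shares for DEP, DProP and DPP lay near these figures. For Mix the count of 5 became 2 without Mix 1 or vehicle 1 and 3 without Mix 2 or vehicle 2. The median log2 fold change of the 9 members was 0.14, -0.10, -0.03 and 0.29 for DEP, DProP, DPP and Mix, against 0.01, 0.02, 0.02 and 0.02 over all genes. The 4 comparisons share the vehicle libraries. With library size alone in place of TMM, the median of all genes against vehicle stood at 0.16, 0.19, 0.18 and 0.16 for DEP, DProP, DPP and Mix, so every change from vehicle given here is one on the TMM scale. The count for DEP was 4 under library size scaling, with AXIN2 and LEF1 added, and the share of all genes called was not taken on that scale.

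**Figure D2:**
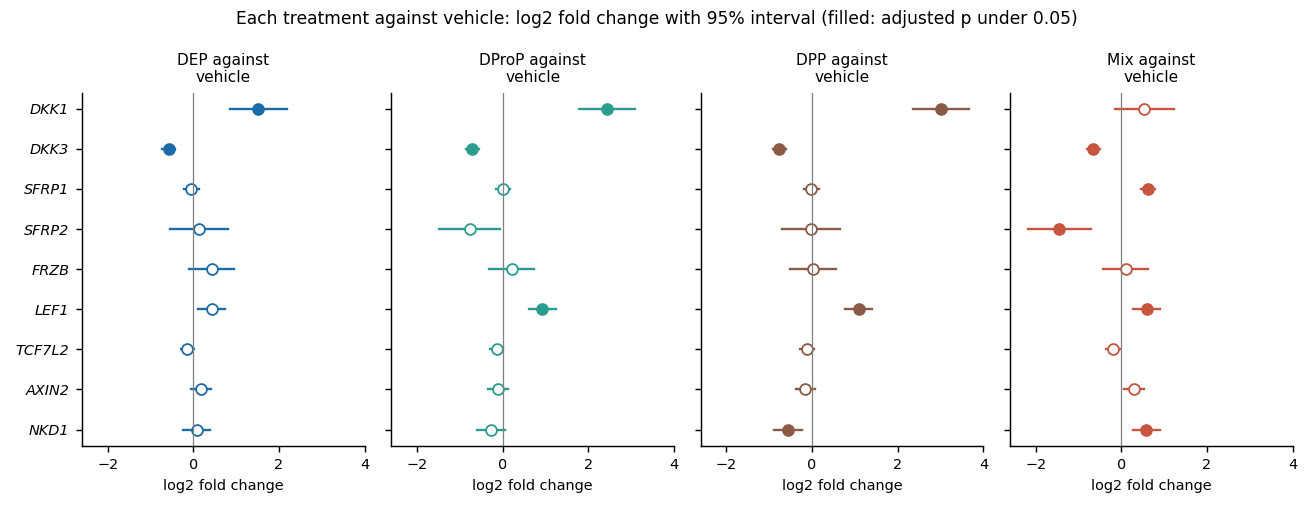
Log2 fold change (horizontal axes) of 9 members in each treatment against vehicle, with 95% intervals derived from the edgeR F statistic. Filled points passed an adjusted p of 0.05. DKK1 lies far to the right with DPP (3.0) and its interval crosses 0 with Mix, while DKK3 lies left of 0 in all 4 panels.

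The 4 treatments were then compared with one another at the same labelled concentration, which asks whether DEP, DProP, DPP and Mix acted alike on these genes. In a test of any difference among the 4 treatments, 6 of the 9 members passed, against 12.4% of all genes. They were DKK1 (adjusted p = 0.000834), SFRP1 (0.000405), NKD1 (0.00181), SFRP2 (0.024), LEF1 (0.0256) and AXIN2 (0.028). The count became 3 without DEP 1, DPP 2, Mix 1 or Mix 2, and was 6 in a fit without the vehicle libraries. In pairs, 15 of 54 tests of members were called over 6 comparisons, against 5.29% of the same tests over all genes, and 9 without Mix 1.

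Mix and DPP had the most called members of the 6 pairs. Of the 9 members 6 were called, against 17.3% of all genes, with 3 members higher with Mix, against 10.4% of all genes, and 3 lower, against 6.82%. NKD1, AXIN2 and SFRP1 were higher with Mix, by log2 fold changes of 1.14 ± 0.15, 0.45 ± 0.10 and 0.63 ± 0.08 (adjusted p = 0.000416, 0.0123 and 0.00027). DKK1, SFRP2 and LEF1 were lower with Mix, at -2.47 ± 0.28, -1.42 ± 0.33 and -0.50 ± 0.14 (adjusted p = 0.000194, 0.0133 and 0.0301). For each of the 6 genes both Mix libraries lay beyond both DPP libraries. As these genes were picked by their calls in the same libraries, this describes them and adds no support. The calls of NKD1, SFRP1 and DKK1 held in all 21 alternatives. That of AXIN2 ended without DPP 2 (adjusted p = 0.11) or Mix 1 (0.0757), that of SFRP2 without DPP 2, Mix 1 or Mix 2 (0.0581 to 0.0942), and that of LEF1 without any 1 of the 4 libraries (0.0886 to 0.132). The median over the 9 members was 0.07, against -0.01 over all genes.

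Against DProP, 4 members were called for Mix, against 6.89% of all genes. DKK1 was lower with Mix by a log2 fold change of -1.89 ± 0.28 (adjusted p = 0.00291), whereas SFRP1 (0.61 ± 0.08, adjusted p = 0.00111), NKD1 (0.85 ± 0.15, adjusted p = 0.00554) and AXIN2 (0.40 ± 0.10, adjusted p = 0.0404) were higher. The calls of DKK1, SFRP1 and NKD1 held in all 21 alternatives. AXIN2 kept its call in 12, and leaving out any 1 of 8 libraries, or using library size alone, brought its adjusted p to between 0.053 and 0.252. Those 8 were all but the DPP libraries.

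Mix against DEP called 2 members, against 3.86% of all genes. SFRP1 was higher with Mix (0.67 ± 0.08, adjusted p = 0.00129) and held in every alternative, and SFRP2 was lower (-1.58 ± 0.33, adjusted p = 0.0241). The SFRP2 call ended without any 1 of the DEP or Mix libraries (adjusted p from 0.108 to 0.201), and DESeq2 gave it no adjusted p. NKD1 stood at 0.50 ± 0.14 with an adjusted p of 0.0793, and passed the test in 7 of 21 alternatives, DESeq2 and limma-voom among them. DKK1 stood at -0.98 ± 0.29 (adjusted p = 0.086), with a 95% interval from -1.61 to -0.35. SFRP1 was the 1 member called higher with Mix than with each single phthalate, a pattern that APCDD1, KREMEN1, APC2 and LGR6 outside the members shared.

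**Figure D3:**
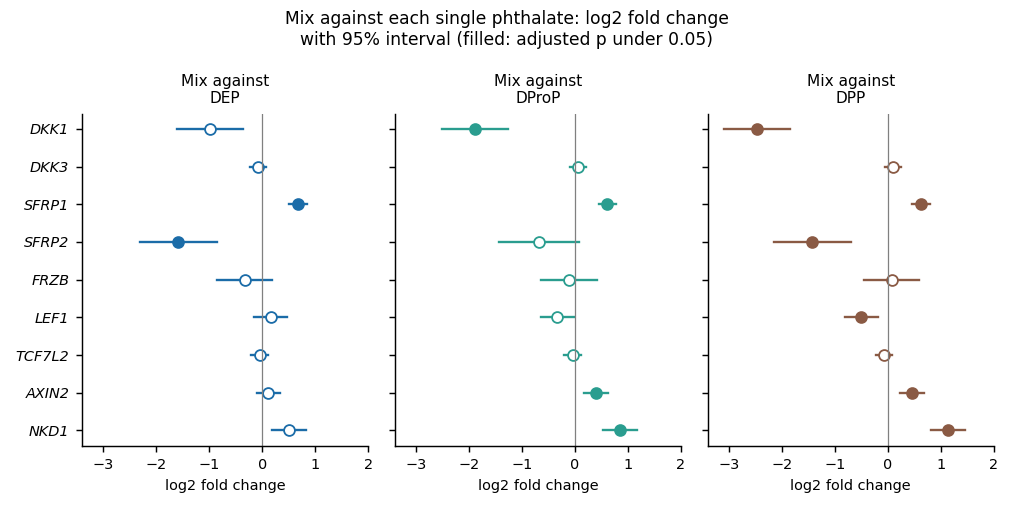
Log2 fold change (horizontal axes) of 9 members with Mix against DEP, DProP and DPP, with 95% intervals derived from the edgeR F statistic. Filled points passed an adjusted p of 0.05. SFRP1 lies right of 0 in all 3 panels (0.67, 0.61 and 0.63), DKK1 lies left of 0 in all 3, and its DEP point is open.

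Among the single phthalates, DPP and DEP differed in 3 members, against 2.93% of all genes. DPP gave more DKK1 (log2 fold change 1.49 ± 0.27, adjusted p = 0.0131) and LEF1 (0.66 ± 0.14, adjusted p = 0.0292), and less NKD1 (-0.63 ± 0.15, adjusted p = 0.0421). Both DPP libraries lay beyond both DEP libraries for each gene, which adds no support, as the genes were picked by their calls in these libraries. The DKK1 call ended without DEP 1 (adjusted p = 0.115), DEP 2 (0.175) or DPP 2 (0.15), and the LEF1 call without any 1 of the 4 libraries (0.085 to 0.281). NKD1 kept its call in 10 of 21 alternatives. It was lost when any 1 library other than DPP 1 was left out (0.0511 to 0.266), in a fit of the compared groups (0.051), and in a fit without the vehicle libraries (0.0518).

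DProP and DEP, which differ in the length of the alkyl chains, gave no called member by edgeR, DESeq2 or limma-voom, with 0.524% of all genes called by edgeR. At an unadjusted p under 0.05, edgeR counted 5 members. The share of all genes at that threshold was not taken, so this count cannot be judged. DKK1 stood at 3.46 and 2.65 CPM with DProP, against 1.66 and 1.58 CPM with DEP, a log2 fold change of 0.91 with a 95% interval from 0.32 to 1.49 (adjusted p = 0.162). LEF1 stood 0.49 higher on the log2 scale with DProP (interval 0.18 to 0.80, adjusted p = 0.156). DKK3 and TCF7L2 had the narrowest intervals, from -0.28 to 0.02 and from -0.16 to 0.16. With p-values adjusted over all 10 comparisons together, DKK1 (0.0425) and LEF1 (0.0388) passed the test. DKK1 also passed in a fit of the compared groups (0.0368), and without DProP 1 so did SFRP2 (0.0312).

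DPP and DProP likewise gave no called member by the 3 tools, with 0.262% of all genes called by edgeR. Without a share of all genes at that threshold, 2 members had an unadjusted p under 0.05. These were DKK1, with a log2 fold change of 0.58 (interval 0.01 to 1.14, adjusted p = 0.399), and SFRP2, with 0.74 (interval 0.04 to 1.45, adjusted p = 0.387). In the order of group means, DKK1 ran from DPP (4.55 ± 1.42 CPM, SD, n = 2 libraries) through DProP (3.05 ± 0.572), DEP (1.62 ± 0.0540) and Mix (0.817 ± 0.254) to vehicle (0.564 ± 0.110), and no pair of neighbours in this order was called. NKD1 had the order Mix, DEP, vehicle, DProP and DPP, and AXIN2 had the same order, again without a called pair of neighbours. LEF1 had the order DPP, DProP, Mix, DEP and vehicle. These orders are descriptions of 2 libraries per group.

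Other genes of the pathway were taken from 7 lists of general knowledge. Among 12 tested inhibitors outside the members, 3 fell and none rose with DEP. With DProP and with DPP 3 fell and 1 rose, and with Mix 1 fell and none rose. The riser was CER1 in both comparisons, at a mean of only 0.096 CPM over the libraries. Over all genes 13.5%, 17.5%, 19.5% and 10.7% fell with DEP, DProP, DPP and Mix, and 10.1%, 14.7%, 16.7% and 9.71% rose. Scaled by library size alone, 2, 2, 2 and 1 of the inhibitors fell and 0, 1, 2 and 1 rose with DEP, DProP, DPP and Mix. Here and in the lists below, the shares over all genes are on the TMM scale, and none was taken with library size alone. APCDD1, a membrane inhibitor of Wnt signalling, stood at 107 and 104 CPM with DEP, 92.9 and 84.8 CPM with DProP, 86.1 and 77.1 CPM with DPP, 144 and 129 CPM with Mix, against 121 and 128 CPM in vehicle. It fell with DEP (-0.23 ± 0.08), DProP (-0.48 ± 0.08) and DPP (-0.61 ± 0.08). It lay higher with Mix than with DEP (0.37 ± 0.08, adjusted p = 0.022), DProP (0.62 ± 0.08, adjusted p = 0.00107) and DPP (0.74 ± 0.08, adjusted p = 9.93e-05). KREMEN1, a partner of DKK1 at the LRP co-receptors, fell with DEP (-0.40 ± 0.08), DProP (-0.32 ± 0.08) and DPP (-0.73 ± 0.08). Mix exceeded DEP by 0.44 ± 0.08, DProP by 0.36 ± 0.08 and DPP by 0.76 ± 0.08 (adjusted p = 0.0119, 0.0177 and 8.27e-05). SFRP4, a further relative of SFRP1, fell in all 4 treatments, by log2 fold changes of -0.55, -0.84, -0.46 and -0.53 for DEP, DProP, DPP and Mix, and did not pass the test of any difference among them (adjusted p = 0.152). The 21 pathway genes named were picked by the smallest p-values in their lists, so their number of calls is no result about the lists. They had 103 calls in 210 tests, of which 53 held in all alternatives. Among those of the inhibitors, the calls of APCDD1 for DEP, KREMEN1 for DProP, and SFRP4 for DEP, DPP and Mix did not, nor did those of Mix against DEP for APCDD1 and against DEP and DProP for KREMEN1.

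Among 17 tested Wnt target genes outside the members, 1 rose and 1 fell with DEP, 3 rose and 1 fell with DProP, 4 rose and 1 fell with DPP, and 2 rose and 1 fell with Mix. Under library size scaling 2, 6, 6 and 6 rose and 1 fell in each. Over all genes 10.1%, 14.7%, 16.7% and 9.71% rose and 13.5%, 17.5%, 19.5% and 10.7% fell in these comparisons with TMM. CCND1, which encodes cyclin D1, stood at 83.6 and 80.4 CPM with DPP and at 52.6 and 66.2 CPM with DProP, against 39.4 and 35.7 CPM in vehicle. It rose with DProP (0.66 ± 0.11) and DPP (1.13 ± 0.11), was higher with DPP than with DEP (1.004 ± 0.108, adjusted p = 0.00105), and was lower with Mix than with DProP (-0.67 ± 0.11, adjusted p = 0.00454) and DPP (-1.14 ± 0.11, adjusted p = 7.58e-05). FOSL1, an AP-1 subunit, rose with DEP (1.03 ± 0.19), DProP (1.39 ± 0.19) and DPP (2.44 ± 0.19). It was higher with DPP than with DEP (1.41 ± 0.18) and DProP (1.05 ± 0.17), and lower with Mix than with DProP (-0.81 ± 0.18) and DPP (-1.86 ± 0.18). SOX4 fell in all 4 treatments, between -0.72 ± 0.06 and -0.46 ± 0.06. Of these, the calls for CCND1 and FOSL1 between Mix and DProP, and those of FOSL1 for DPP against DEP and DProP, did not hold in all alternatives. The summed level of 10 proliferation markers was 203 and 397 CPM in the DProP libraries, from 161 to 253 CPM in the other treated libraries, against 180 to 183 CPM in vehicle, and its part in the values of CCND1 and LEF1 was not tested.

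**Figure D4:**
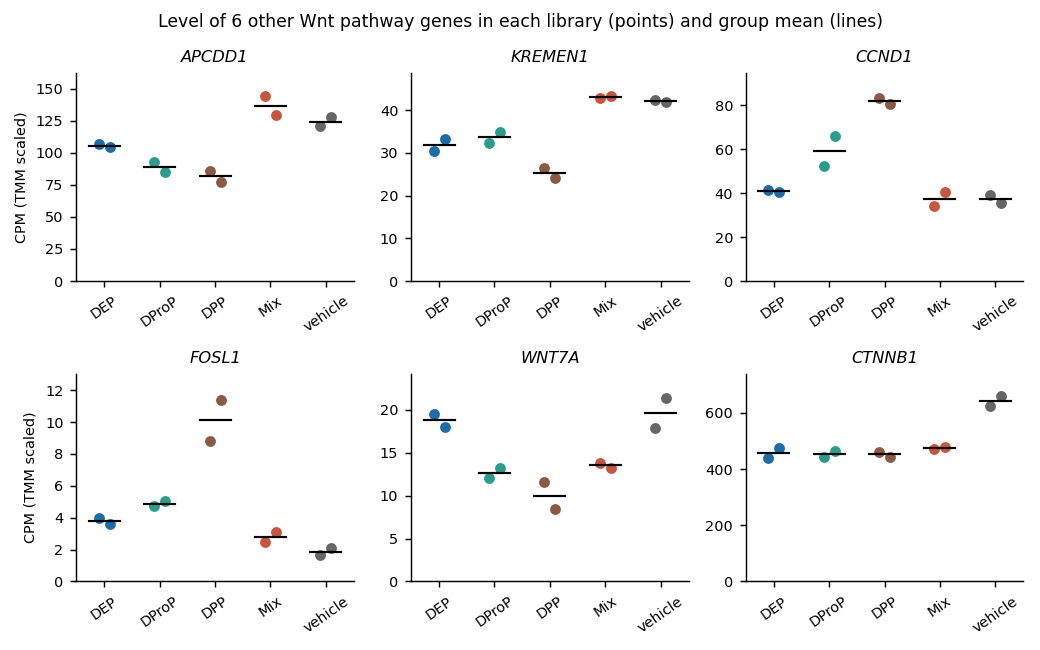
CPM of 6 other Wnt pathway genes (vertical axes, from 0, each panel with its own scale) in the 2 libraries of each group (points), with the group mean as a line. CCND1 and FOSL1 are highest with DPP, APCDD1 and KREMEN1 are lowest with DPP, and CTNNB1 is lower in all 8 treated libraries than in vehicle.

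Of 11 tested Wnt ligands, 1 fell with DEP and 2 with each other treatment, and 1 rose with DPP. The riser was WNT10B, at a mean of only 0.080 CPM over the libraries. Over all genes 13.5%, 17.5%, 19.5% and 10.7% fell with DEP, DProP, DPP and Mix, and 10.1%, 14.7%, 16.7% and 9.71% rose. On library size scaling 2 ligands rose with DPP and 1 fell with Mix, and the other counts of ligands stayed as they were. WNT7A, a ligand of neural progenitors, stood at 11.6 and 8.40 CPM with DPP, against 17.9 and 21.4 CPM in vehicle (-0.97 ± 0.14). It also fell with DProP (-0.64 ± 0.14) and Mix (-0.54 ± 0.14), calls that did not hold in all alternatives. WNT5B fell with DEP (-1.31 ± 0.25), DProP (-1.03 ± 0.25) and DPP (-1.74 ± 0.26), of which the DProP call did not hold in all. WNT5A, which acts largely outside the beta-catenin branch, was lower with Mix than with vehicle (-0.50 ± 0.10), DEP (-0.51 ± 0.10), DProP (-0.46 ± 0.10) and DPP (-0.68 ± 0.10). WLS, which carries Wnt ligands to the cell surface, was also lower with Mix than with vehicle (-0.25 ± 0.06), DEP (-0.31 ± 0.06), DProP (-0.28 ± 0.06) and DPP (-0.40 ± 0.06). For both genes the comparison with DPP held in all alternatives (adjusted p = 0.00112 and 0.0011) and the other 3 did not. In the list of 5 tested genes under Wnt secretion and R-spondins, 1 fell with DEP, 1 rose with DProP and none was called with DPP. With DPP 1 had an unadjusted p under 0.05, where the share of all genes was not taken, and with Mix 1 rose and 2 fell. GPC4 fell with DEP and Mix, WLS fell with Mix, and NDP rose with DProP and Mix. The R-spondin gene RSPO4 was not called against vehicle. DESeq2 called 1 gene of this list with DPP and limma-voom 0. Scaling by library size gave 2 of its genes that rose in every treatment and 1 that fell, with Mix. GPC4 and NDP of this list had calls that did not hold in every alternative.

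The list of receptors and co-receptors also held genes outside that name, namely CELSR1, CELSR2, CELSR3, VANGL1, VANGL2 and MCC. These entered its counts: MCC rose with DProP and DPP, CELSR2 fell in all 4 treatments, and VANGL2 fell with DProP and DPP. Of the 23 tested genes of the list, 10 fell with DEP, 11 with DProP, 10 with DPP and 7 with Mix. Over all genes 13.5%, 17.5%, 19.5% and 10.7% fell. In the same comparisons none, 2, 4 and 1 rose, against 10.1%, 14.7%, 16.7% and 9.71% of all genes. The split depended on scaling: with library size alone 5, 7, 9 and 3 fell and 3, 6, 6 and 2 rose. The list's median log2 fold change was -0.17, -0.19, -0.16 and -0.11, and with library size alone it was -0.01, -0.01, 0.00 and 0.03. FZD9, a Frizzled receptor, fell with DEP (-0.88 ± 0.14), DProP (-0.999 ± 0.142), DPP (-1.44 ± 0.14) and Mix (-0.64 ± 0.14). LRP5, the co-receptor, fell with DEP (-0.38 ± 0.06), DProP (-0.38 ± 0.06), DPP (-0.52 ± 0.06) and Mix (-0.29 ± 0.06). The call of FZD9 for Mix and those of LRP5 for DEP, DProP and Mix did not hold in all alternatives. CELSR1, a cadherin of planar cell polarity, rose with DPP (0.38 ± 0.07) and fell with Mix (-0.38 ± 0.07), the second of which did not hold in all, and was lower with Mix than with DPP (-0.77 ± 0.07, adjusted p = 6.63e-05).

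In the list of the degradation complex and Dishevelled, 5 of 23 tested genes fell with DEP, 7 with DProP, 7 with DPP and 5 with Mix. In the same order 2, 3, 3 and 1 rose. Over all genes 13.5%, 17.5%, 19.5% and 10.7% fell with DEP, DProP, DPP and Mix, and 10.1%, 14.7%, 16.7% and 9.71% rose. With library size alone the counts of this list turned to 3, 5, 4 and 2 lower and 6, 7, 8 and 6 higher. That scaling put the median of all genes against vehicle at 0.16 to 0.19, and the share of all genes called was not taken. CTNNB1, which encodes beta-catenin, stood at 441 and 476.5 CPM with DEP, 442 and 463 CPM with DProP, 460 and 444 CPM with DPP, 471 and 480 CPM with Mix, against 623 and 662 CPM in vehicle. It fell by between 0.43 and 0.51 on the log2 scale in the 4 treatments, and these calls held with every scaling tried. APC2, a neural relative of APC, fell with DEP (-0.66 ± 0.07), DProP (-0.73 ± 0.07), DPP (-0.87 ± 0.07) and Mix (-0.32 ± 0.07). It was higher with Mix than with DEP (0.34 ± 0.07, adjusted p = 0.023), DProP (0.41 ± 0.07, adjusted p = 0.00601) and DPP (0.55 ± 0.07, adjusted p = 0.000402). DVL3, a Dishevelled gene, fell with DEP, DProP, DPP and Mix (-0.37, -0.44, -0.43 and -0.21). The calls of APC2 and DVL3 for Mix, and that of APC2 for Mix against DEP, did not hold in all alternatives.

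Of 15 tested nuclear partners of beta-catenin, 3, 4, 3 and 3 fell with DEP, DProP, DPP and Mix, and 1 rose, with DPP. The riser was TLE4, whose call held in 9 of 20 alternatives. Over all genes 13.5%, 17.5%, 19.5% and 10.7% fell with DEP, DProP, DPP and Mix, and 10.1%, 14.7%, 16.7% and 9.71% rose. With library size alone 1, 2, 1 and 1 of the partners fell and 3, 3, 3 and 4 rose. TLE5, a short member of the Groucho corepressor family, fell with DEP (-0.35 ± 0.07), DProP (-0.52 ± 0.07), DPP (-0.32 ± 0.07) and Mix (-0.49 ± 0.07), of which the DPP call did not hold in all alternatives. TLE1 and TLE4, full-length Groucho corepressors, differed in sign between Mix and DPP, with 0.45 ± 0.08 and -0.34 ± 0.07 (adjusted p = 0.00365 and 0.00451).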

How the data were processed

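RNA of 10 neurosphere libraries, 2 in each of 5 groups, was sequenced from libraries of a SureSelect RNA Direct kit, per the labels. The values deposited by the authors are counts, whole numbers of reads per gene and library, not normalized. Per the submitters' processing notes, the build was GRCh38 and the tools included StringTie 2.1.3b, HISAT2 2.1.0, Trimmomatic 0.38 and FastQC. Those notes also name R 4.3.2 with edgeR 4.0.9, give no role or order, and no source states the strand setting of the counting. The table held 46427 genes and no columns of other samples.

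Groups came from the labels. Genes were filtered with filterByExpr, which left 19465, scaled with TMM and tested with edgeR 4.0.16 in R 4.3.3 (robust quasi-likelihood fit, 1 mean per group over all 10 libraries, 5 residual degrees of freedom). Benjamini-Hochberg adjustment ran over all tested genes within a comparison, with a threshold of 0.05. As edgeR's test gives no SE, each SE was derived as the absolute log2 fold change divided by the square root of F. The 95% intervals used this SE and the test's total degrees of freedom, which exceed the residual ones by those borrowed across genes. Library totals of 57222381 to 72973100 counts set the depth, and with 2 libraries per group the 95% intervals give the precision. In counts simulated for DEP against vehicle, the edgeR test called 32.7% of 55 genes shifted by 0.5, 68.5% of 73 shifted by 1 and 85.3% of 68 shifted by 2 (log2), and 0.0743% of 18835 unshifted genes. The simulation shifted a far smaller share of genes than the 23.6% called for DEP in the data, and held no GC trend. As the adjusted p depends on that share, these rates do not carry over to the data.

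The members and gene lists were chosen with earlier results of these data known. All members are named. From each pathway list the 3 tested genes with a mean of at least 1 CPM and the smallest p over the 5 groups are named. Genes most like a member are the 2 with the highest Pearson r of log2 CPM, among genes with a mean of at least 5 CPM. For DKK3 one of these is not reported here.

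Same-numbered libraries did not deviate together (correlations of replicate differences from -0.0465 to 0.0471 over 10 pairs of groups), so the numbers were not used for pairing. Alternatives covered scaling (library size alone, or relative log expression factors), the filter (none, or 1 CPM in 2 libraries), DESeq2 1.42.0, limma-voom (limma 3.58.1), a fit of the compared groups, a replicate block, adjustment over all 10 comparisons, and each library left out in turn. A correction for GC content and length, and a fit without the vehicle libraries, were chosen after seeing the data. Promoter windows came from RefSeq, matched by symbol for 6 of the 10 members.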

Additional observations from a re-analysis of the deposited data

How the results depend on the processing

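No call of a single named gene changed direction, whereas the split of higher and lower calls in the pathway lists against vehicle depended on the scaling. Of the 29 member calls, 17 held in all alternatives tried. With library size alone, 4 members were called for DEP against vehicle in place of 2, without a share of all genes on that scale. Leaving out 1 library at a time gave 2 to 3 called members for DEP against vehicle, 3 to 4 for DProP, 3 to 4 for DPP and 2 to 6 for Mix, 9 to 15 calls between treatments, 3 to 6 members that differed among the 4 treatments, and 98 to 133 calls in the pathway lists against 131 with all libraries. Mix against vehicle had 2 without Mix 1 or vehicle 1 and 3 without Mix 2 or vehicle 2. Calls between treatments fell to 9 without Mix 1, and members that differed among treatments to 3 without DEP 1, DPP 2, Mix 1 or Mix 2. Fewer samples enter these fits, and a lone library is then assumed to vary like the other groups.

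The replicate numbers do not pair the libraries. With the replicate block, 2, 3, 4 and 6 members were called for DEP, DProP, DPP and Mix against vehicle, 15 calls were made between treatments, 6 members differed among the 4 treatments and 132 calls fell in the pathway lists. The precision is set by 2 libraries per group. DKK1 in vehicle rested on 27 counts in 1 library, and genes at 0, such as WIF1, are limited to 3 counts per library.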

Other observations

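Across the 10 libraries, the genes whose log2 CPM followed DKK1 most closely among 11630 candidates were WDR41 (Pearson r = 0.984) and HUS1 (0.974). LEF1 was followed most closely by PROS1 (0.987) and HAP1 (0.982), and DKK3 by SPTBN1 (0.992). For SFRP1 the closest were TENM4 (0.967) and MOB3B (0.965), for NKD1 CLVS2 (0.971) and FAM117B (0.963), and for AXIN2 ADCY2 (0.956) and LRRC49 (0.952). SFRP2 had SRA1 (0.932) and MORF4L1 (0.924), TCF7L2 had NBPF14 (0.931) and TBC1D3E (0.902), and FRZB had TCTEX1D2 (0.810) and FGGY (0.795). These are descriptions over libraries that share 5 group means, and a high r among so many candidates is easily reached with 10 points.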
